A study of Mus musculus with 18 samples.

Results

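Olig1, Olig2, Sox10, Sox8, Myrf, Nkx2-2, Nkx6-2, Zfp488 and St18 are transcription factors of the oligodendrocyte lineage, the cells that make the myelin of the central nervous system. They were chosen by name, and they are 9 of the 27179 genes in the deposited count table. All 9 were counted in every mouse and passed the filter on low counts. RNA was sequenced from half-brain samples of 18 wild-type C57BL/6J mice, an inbred strain, that received glyphosate, a herbicide, or vehicle by daily oral gavage. Dosing began at 4 months of age and lasted 14 days, and vehicle means the neutralised dosing solution without glyphosate. There were 5 vehicle mice (2 males and 3 females), 5 mice at 125 mg/kg/day (3 males and 2 females), 4 mice at 250 mg/kg/day (3 males and 1 female) and 4 mice at 500 mg/kg/day (2 males and 2 females). Mice are called by the number in their label, and each was sequenced as a library of its own. Such a sample holds many cell types, so the level of a gene in it depends both on how many cells express it and on how much each of them makes. In these bulk samples fewer cells of a type and less RNA per cell cannot be told apart.

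Oligodendrocytes arise from progenitors that divide, spread through the brain and then either persist or mature into myelinating cells. Olig2, a basic helix-loop-helix factor, specifies the lineage, and its neighbour Olig1 is needed for maturation and myelin repair. Sox10, an HMG-box factor, is made along the whole lineage and switches on Myrf in cells that leave the progenitor state. Myrf, a membrane-bound factor that releases its own DNA-binding part, then drives the myelin genes together with Sox10. Sox8 is a close relative of Sox10 with overlapping roles. Nkx2-2 and Nkx6-2 are homeodomain factors, the former linked to the onset of differentiation and the latter to mature oligodendrocytes and the ordering of myelin at the nodes. Zfp488, a zinc finger protein, works with Olig2 in differentiation. St18, also called Myt3, belongs to the Myt1 family of zinc finger factors, is found in neurons as well as in oligodendrocytes, and is better known from neurons and pancreatic islet cells.

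Total counts per mouse ran from 3948096 to 11732885, and the smallest count of any of the 9 genes in any library was 18 (Zfp488). The column headers place all libraries on the same flow cell and lane. The libraries of 2 mice stood apart before any comparison, G4 at 500 mg/kg and G9 of the vehicle group, whose median correlation with the remaining libraries was 0.932 and 0.933 (0.948 to 0.968 for the 16 others). In these libraries the summed level of 12 markers of forebrain glutamatergic neurons was 606 CPM (counts scaled to library size) in G4 and 593 in G9, and 1820 or more in every other mouse, while 12 hindbrain and spinal cord markers summed to 152 and 265 CPM and to 76.3 or less in the others. The summed glutamatergic level lay between 593 and 4790 CPM among vehicle mice, and dosed mice had between 2230 and 5770 CPM (125 mg/kg), between 1820 and 4340 CPM (250 mg/kg) or between 606 and 2760 CPM (500 mg/kg). The half-brains thus differed in the regional markers they held, and the part of this in the results below was not tested. The markers that define oligodendrocytes were present in every library, with 22 myelin genes summing to 4640 CPM or more.

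Olig1 (Entrez gene 50914, chr16:91269769-91271939, plus strand) and Olig2 (50913, chr16:91225550-91228677, plus strand) lie on the same chromosome, with 41092 bases from the end of Olig2 to the start of Olig1 (GRCm38). Sox10 (20665) is at chr15:79154913-79164490 and Sox8 (20681) at chr17:25565893-25570686, both on the minus strand. Myrf (225908, chr19:10208271-10240777), Nkx2-2 (18088, chr2:147176485-147195434), Nkx6-2 (14912, chr7:139579376-139582797) and Zfp488 (382867, chr14:33967070-33979034) are on the minus strand as well. St18 (240690, chr1:6487231-6860940) is on the plus strand and is the longest of the 9 genes. Exons of 4 of the genes share bases with a gene on the opposite strand, 12.9% of the exonic bases of Nkx6-2 (with Inpp5a), 10.6% of Sox8 (2810468N07Rik), 9.67% of Nkx2-2 (Nkx2-2os) and 7.26% of Olig1 (Gm15966). The strand setting of the read counting is not given in the sources used here, so reads from these shared stretches cannot be assigned with certainty.

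RefSeq promoter windows of GRCm38.p6, from 250 bases before to 50 bases after a start of the gene, were at hand for 5 of the 9 genes (Olig2, Sox8, Nkx2-2, Nkx6-2 and Zfp488). All 5 were rich in G and C, at 59.7% to 66.7% against a median of 52.7% over 32851 windows. The 250 bases before Nkx6-2 are shown because they hold no annotated exon and because this gene tracked the myelin genes closely, with the match to the E-box letters (CANNTG), the class of site that Olig factors and their partners bind, in capitals. The other lines show 2 short matches, in capitals, one to the letters ACAATG or ACAAAG of Sox sites before Olig2 and one to CTGGCAC or CTGGTAC, a Myrf motif, just inside the first exon of a Zfp488 transcript. Each motif was searched on both strands.
Nkx6-2 (chr7:139582798-139583047, minus strand): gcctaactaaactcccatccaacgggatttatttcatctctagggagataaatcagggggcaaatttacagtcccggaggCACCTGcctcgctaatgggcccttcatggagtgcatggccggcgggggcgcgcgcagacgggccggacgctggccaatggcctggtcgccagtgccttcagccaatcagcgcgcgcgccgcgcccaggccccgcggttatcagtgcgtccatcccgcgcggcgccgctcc
Olig2 (chr16:91225474-91225495, plus strand): gaaaagcaCATTGTtcccgccc
Zfp488 (chr14:33978739-33978761, minus strand): acccgcagCTGGTACactcaacc
An E-box match occurs in 72.3% of all windows, a Sox match in 28.6% and a Myrf match in 7.1%. Sox8, Nkx6-2 and Zfp488 had 1 E-box match each, Nkx2-2 had 3 and Olig2 had 0. The Sox match of Olig2 begins 68 bases before its RefSeq start and lies in an exon that another annotation (GENCODE vM21) starts further upstream. The Myrf match of Zfp488 begins at base 12 of the transcript whose start the window takes, which lies 270 bases inside the RefSeq span given above, and it overlaps the E-box match. The window of Nkx2-2 likewise takes a start 9032 bases inside its span. These matches describe the letters only.

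Per kilobase of exon, Olig1 had the highest level of the 9 factors. Its mean over the 18 mice was 100.1 RPKM (reads scaled by exon length and library size; SD 35.9), followed by Sox8 at 37.2 (8.67), Sox10 at 23.6 (8.08) and Olig2 at 22.1 (7.27). Nkx6-2 (12.5, SD 5.35), Myrf (9.44, SD 3.71) and St18 (5.65, SD 2.29) were intermediate, and Nkx2-2 (2.50, SD 0.976) and Zfp488 (1.61, SD 0.498) were lowest. Olig1 lay above Sox8, Sox8 above Sox10 and Olig2 above Nkx6-2 in 18 of 18 mice. Sox10 and Olig2 could not be ordered, since Sox10 was the higher in 11 of 18 mice. The remaining neighbours held their order in 14 to 17 mice, and their means differed by 1.32 to 2.26 times. Between the lowest and the highest mouse, Sox8 varied least (2.25-fold) and St18 most (4.41-fold).

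The study asked how brain gene expression follows the glyphosate dose, and fitted dose as a continuous variable with sex as a covariate. With these terms and the quasi-likelihood test of edgeR, none of the 9 lineage factors passed at an adjusted p under 0.05. This was 0 of 9, against 0.29% of the 15863 genes tested. All 9 slopes were positive, against 51.2% of all genes, with a median of 0.59 on the log2 scale per 500 mg/kg against 0.01 for all genes. At an unadjusted p under 0.05, 5 of 9 were higher with dose (Olig1, Olig2, Myrf, Nkx6-2 and Zfp488), against 7.91% of all genes. That count was 1 of 9 without mouse G4 (4.71% of all genes) and 1 of 9 without G87 (6.05%). It was 3 of 9 without G1, G5 or G40 in turn. With the number that opens each sample's title (title number) as a block it was 0 of 9. The share of all genes at that p was not computed for these latter fits. What the title number stands for is not said in the labels. Only the numbers 43 and 46 are borne by mice of more than 1 dose, so for the other mice this block cannot be told apart from dose. By DESeq2 1 of 9 passed (Myrf; 1.28% of all genes) and by limma-voom 0 of 9 (0.315%). Myrf had the steepest slope, 0.92 (SE 0.24), which is 1.89-fold per 500 mg/kg. Mouse G4 was the highest of the 18 mice for 7 of the 9 genes. Without G4 the median slope was 0.35, 8 of 9 slopes were positive (49.9% of all genes) and the slope of Nkx2-2 was -0.25.

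**Figure D1:**
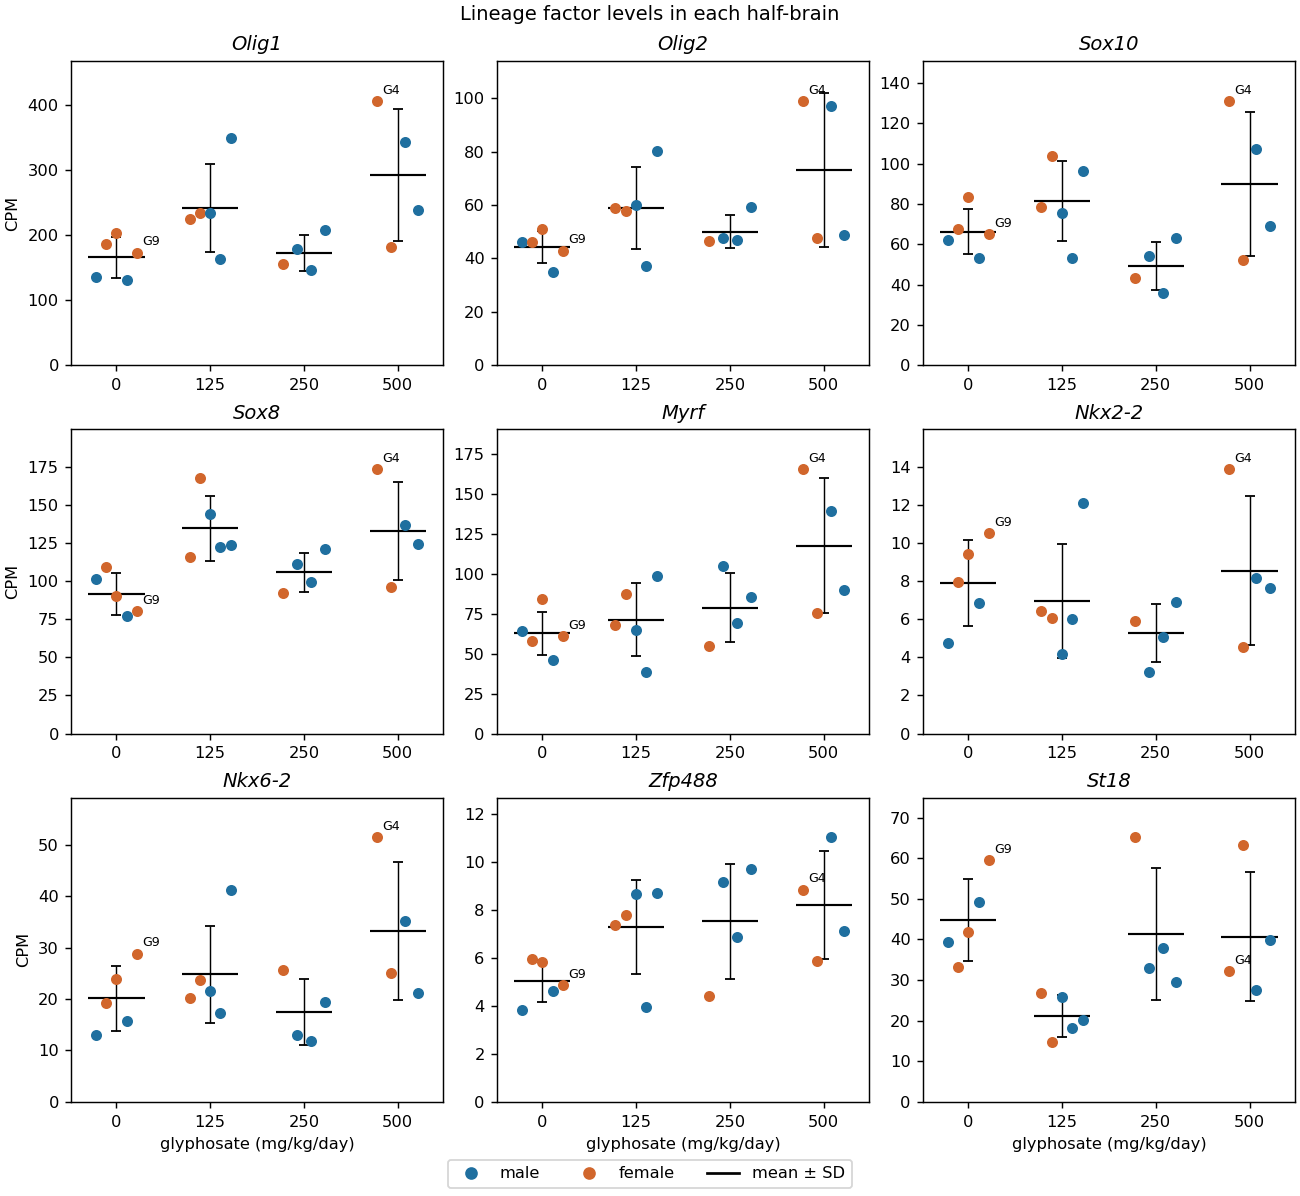
Level of each lineage factor in CPM (vertical axes, from 0) in every mouse by glyphosate dose in mg/kg/day (0 is vehicle), with males in blue, females in orange and black bars for mean ± SD. Mouse G4 is the highest for 7 of the 9 genes, the groups overlap at 500 mg/kg, and the 5 mice at 125 mg/kg lie below all vehicle mice for St18 and above them for Sox8.

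Olig1 was measured at 135, 131, 173, 186 and 203 CPM in the vehicle mice G1, G5, G9, G15 and G18. At 125 mg/kg it was 224, 234, 235, 164 and 349.7 CPM (G25, G29, G34, G40, G45), at 250 mg/kg 155, 178, 147 and 208 CPM (G49, G64, G66, G71), and at 500 mg/kg 407, 182, 344 and 238 CPM (G4, G79, G87, G90). The levels at 125 and 500 mg/kg were mostly above those of the vehicle mice, with G40 and G79 inside the vehicle range, and those at 250 mg/kg overlapped it. The mean was 166 ± 31.6 CPM (SD, n = 5) with vehicle and 293 ± 101 (n = 4) at 500 mg/kg. The dose slope was 0.66 (SE 0.25, unadjusted p = 0.0166 and adjusted p = 0.270 by edgeR), and the change at 500 mg/kg against vehicle was 0.83 (SE 0.23, adjusted p = 0.192 by edgeR). Without G4 the slope was 0.41.

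Olig2 varied across the mice much as its chromosomal neighbour did. It was 46.1, 34.9, 42.9, 46.2 and 51.1 CPM in the vehicle mice in the same order, and 59.0, 57.7, 59.9, 37.0 and 80.4 CPM at 125 mg/kg. At 250 mg/kg it was 46.6, 47.8, 46.7 and 59.2 CPM, and at 500 mg/kg 99.1, 47.6, 97.2 and 48.9 CPM. The 500 mg/kg group was split, with G4 and G87 far above every vehicle mouse and G79 and G90 inside the vehicle range. The slope was 0.63 (SE 0.23, unadjusted p = 0.0123 and adjusted p = 0.246 by edgeR; 0.41 without G4), and 500 mg/kg stood 0.73 (SE 0.23, adjusted p = 0.249 by edgeR) above vehicle on the log2 scale.

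Sox10, the factor shared by all stages of the lineage, showed less of a trend. Its levels were 61.9, 53.2, 65.1, 67.6 and 83.5 CPM with vehicle, 78.4, 104, 75.7, 53.4 and 96.5 CPM at 125 mg/kg, 43.4, 54.3, 35.7 and 62.9 CPM at 250 mg/kg, and 131, 52.1, 107 and 68.9 CPM at 500 mg/kg. The 250 mg/kg mice were the lowest as a group, with a mean of 49.1 ± 12 CPM (n = 4) against 66.3 ± 11.0 (n = 5) with vehicle, and these groups overlapped. The dose slope was 0.32 (SE 0.27, adjusted p = 0.650 by edgeR), the log2 change at 250 mg/kg was -0.37 (SE 0.26) and that at 500 mg/kg 0.46 (SE 0.24, adjusted p = 0.489). The slope was 0.04 without G4, 0.12 without G87 and 0.52 without G79, and without all 500 mg/kg mice it was -0.58.

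Sox8, the relative of Sox10, was above vehicle on average at every dose, and by similar amounts at 125 and 500 mg/kg. It was 102, 77.3, 80.2, 109 and 90.2 CPM with vehicle and 116, 168, 144, 123 and 124 CPM at 125 mg/kg, where all 5 mice lay above every vehicle mouse (1.1% of all genes did so). At 250 mg/kg it was 92.0, 112, 99.6 and 121 CPM and at 500 mg/kg 174, 96.2, 137 and 125 CPM, and both groups overlapped the vehicle mice. The change at 125 mg/kg was 0.56 (SE 0.16, unadjusted p = 0.00229 and adjusted p = 0.323 by edgeR), which is 1.47-fold. That change did not pass the adjusted threshold, and no gene of the 15863 did in that comparison (0.0%). At 500 mg/kg the change was 0.54 (SE 0.16, adjusted p = 0.233 by edgeR). The dose slope was 0.38 (SE 0.20, adjusted p = 0.423 by edgeR), or 0.20 without G4.

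Myrf was measured at 63.9, 46.2, 61.0, 57.9 and 83.9 CPM in the vehicle mice. It was 67.9, 87.1, 64.8, 38.3 and 98.4 CPM at 125 mg/kg, 55.0, 105, 69.4 and 85.7 CPM at 250 mg/kg and 165, 75.4, 139.5 and 89.8 CPM at 500 mg/kg. The group means went up with each dose, from 62.6 ± 13.7 CPM (n = 5) through 71.3 ± 23.1 (n = 5) and 78.7 ± 21.5 (n = 4) to 118 ± 42.1 (n = 4), and of the 500 mg/kg mice only G79 lay below the highest vehicle mouse. The slope of 0.92 (SE 0.24) had an unadjusted p of 0.00131 and an adjusted p of 0.120 by edgeR, and the change at 500 mg/kg was 0.92 (SE 0.27, adjusted p = 0.22). The call depended on the test and on 1 mouse. The likelihood ratio test of DESeq2, the tool of the study, gave an adjusted p of 0.0306 for nearly the same slope (0.91), with 1.28% of 17661 genes called, and edgeR without G79 gave a slope of 1.1 with an adjusted p of 0.0472 (0.792% of genes called). Without G4 the slope was 0.67 with an adjusted p of 0.540 by edgeR (0.0124% called). The title number 46 is the only one borne by both vehicle and 500 mg/kg mice. Among its mice, Myrf was 61.0 and 57.9 CPM in the vehicle mice G9 and G15, both female. It was 139.5 and 89.8 CPM in the 500 mg/kg mice G87 and G90, both male.

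Nkx2-2, the homeodomain factor of early differentiation, had a low level and no trend that held. It was 4.78, 6.84, 10.5, 7.93 and 9.42 CPM with vehicle, 6.45, 6.04, 4.18, 5.99 and 12.1 CPM at 125 mg/kg, 5.92, 3.26, 5.04 and 6.89 CPM at 250 mg/kg, and 13.9, 4.53, 8.15 and 7.64 CPM at 500 mg/kg. All 4 groups overlapped, with G4 the highest mouse and G45 the next. The slope was 0.13 (SE 0.32, adjusted p = 0.896 by edgeR).

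Nkx6-2, the homeodomain factor of mature cells, was 13.1, 15.7, 28.8, 19.3 and 24.0 CPM with vehicle and 20.2, 23.8, 21.5, 17.3 and 41.2 CPM at 125 mg/kg. It was 25.7, 13.0, 11.9 and 19.4 CPM at 250 mg/kg and 51.4, 25.1, 35.1 and 21.2 CPM at 500 mg/kg, where G4 and G87 exceeded every vehicle mouse. The slope was 0.63 (SE 0.29, unadjusted p = 0.0447 and adjusted p = 0.369 by edgeR) and fell to 0.35 without G4. Without the 500 mg/kg mice it was -0.12.

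Zfp488 was the factor with the fewest reads. Its levels were 3.85, 4.63, 4.88, 5.95 and 5.85 CPM with vehicle, 7.37, 7.80, 8.68, 3.95 and 8.74 CPM at 125 mg/kg, 4.44, 9.16, 6.89 and 9.70 CPM at 250 mg/kg, and 8.87, 5.87, 11.0 and 7.14 CPM at 500 mg/kg. In each dosed group all mice but 1 lay above every vehicle mouse, the exceptions being G40, G49 and G79. The share of all genes that separate this far was not computed. The slope of 0.59 (SE 0.26, unadjusted p = 0.0379 and adjusted p = 0.350 by edgeR) was 0.54 without G4, and the log2 changes against vehicle were alike at the 3 doses, 0.52 (SE 0.25), 0.56 (SE 0.28) and 0.70 (SE 0.27). Blocked on the title number, which separates 6 sets of mice and is largely tied to dose, its slope was 0.06.

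St18, the Myt1 family member, had its lowest levels at the lowest dose. It was 39.4, 49.3, 59.6, 33.3 and 42.0 CPM with vehicle and 26.7, 14.8, 25.9, 18.3 and 20.2 CPM at 125 mg/kg, where all 5 mice lay below every vehicle mouse (1.68% of all genes did so). At 250 mg/kg it was 65.1, 32.9, 38.0 and 29.5 CPM and at 500 mg/kg 32.1, 63.2, 27.6 and 39.8 CPM, and both groups overlapped the vehicle mice widely. The log2 change at 125 mg/kg was -1.03 (SE 0.24, unadjusted p = 0.000537 and adjusted p = 0.307 by edgeR), a level 0.491 times that of vehicle. DESeq2 gave an adjusted p of 0.0443 for the same contrast, with 0.184% of 19002 genes called. The test of a departure from a straight dose line gave an unadjusted p of 0.000937 and an adjusted p of 0.224 by edgeR (0.0063% of all genes called), and the dose slope itself was 0.11 (SE 0.33). The hindbrain and spinal cord markers summed to between 0.0929 and 14.1 CPM in the 125 mg/kg mice and between 3.23 and 265 CPM in the vehicle mice, and the correlation of St18 with that list across the 18 mice was 0.662. With 10 microglial markers the correlation was -0.831. The part of either in the level of St18 was not tested.

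**Figure D2:**
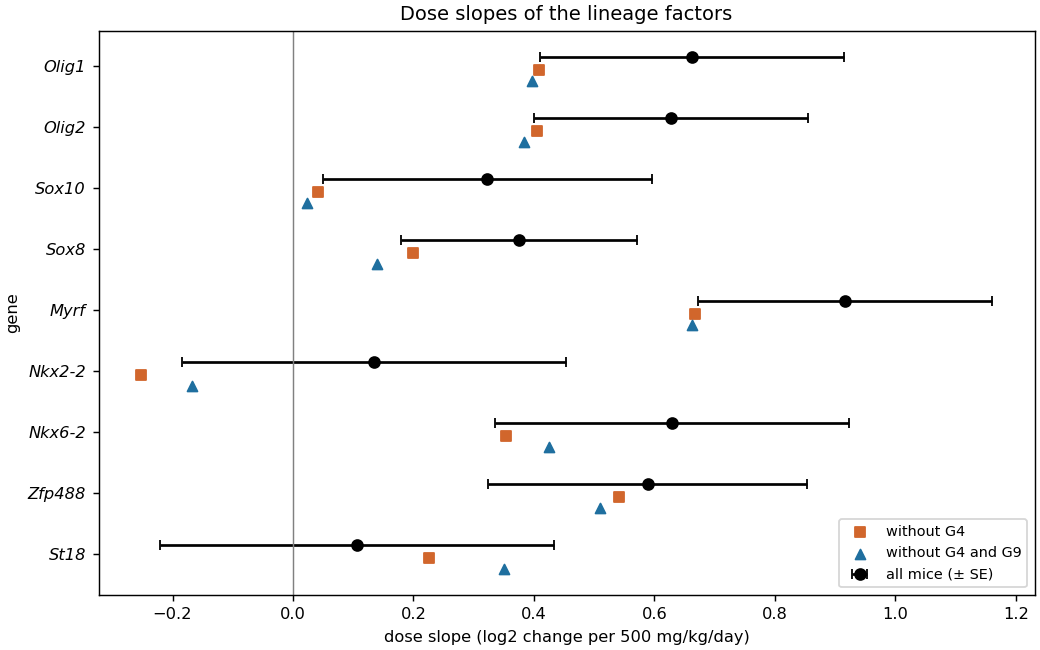
Dose slope of each lineage factor (horizontal axis, log2 change per 500 mg/kg/day) with all 18 mice (black circles, bars are ± 1 standard error), without mouse G4 (orange squares) and without G4 and G9 (blue triangles). All 9 slopes are above 0 with all mice, Myrf has the largest of them (0.92), and without G4 that of Nkx2-2 is below 0 (-0.25).

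Compared group by group, 0 of 9 members passed the adjusted threshold by edgeR at any dose, and DESeq2 called 1 at 125 mg/kg (St18, adjusted p = 0.0443 by DESeq2), 0 at 250 mg/kg (0.0% of all genes) and 0 at 500 mg/kg. At 125 mg/kg 3 of 9 had an unadjusted p under 0.05 (Olig1 and Sox8 higher, St18 lower; 11.2% of all genes did), with a median log2 change of 0.42. At 250 mg/kg 0 of 9 did (3.76% of all genes), the median was 0.09 and 5 of 9 changes were positive. At 500 mg/kg 6 of 9 did, all of them higher (Olig1, Olig2, Sox8, Myrf, Nkx6-2 and Zfp488; 7.51% of all genes), with a median of 0.70. This count was 4 of 9 without G4 (3.76% of all genes) or without G87 (5.85%). The count at 125 mg/kg was 5 of 9 without G40, G79 or G87 in turn, fits for which the share of all genes was not computed. In the 500 mg/kg contrast edgeR called 0.0189% of all genes and DESeq2 0.906%, and the smallest adjusted p among the members from DESeq2 was 0.0502 for Olig1. None of the 9 had all its 500 mg/kg mice above every vehicle mouse (2.32% of all genes did), since G79 did not exceed the highest vehicle mouse for 8 members and other mice did not for St18. The 3 contrasts share the vehicle mice. The test for any difference among the 4 groups called 0 of 9 by edgeR (0.0441% of all genes) and gave 7 of 9 an unadjusted p under 0.05 (15% of all genes), the smallest for St18 (0.0024, adjusted p = 0.164). Without G4 it was 4 of 9 (13.2% of all genes) and without G87 3 of 9 (12.7%).

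The sexes did not separate the members. At the same dose the male levels differed from the female ones by -0.38 (Nkx6-2, SE 0.22) to 0.08 (Zfp488, SE 0.20) on the log2 scale, 0 of 9 passed with or without adjustment (0.0441% and 7.99% of all genes), and 8 of 9 estimates were lower in males, against 4 of 9 without G4 and 5 of 9 without G5. The slope in males minus that in females ran from -0.40 (St18, SE 0.67) to 0.63 (Zfp488, SE 0.53), and 0 of 9 passed with or without adjustment (0.0% and 1.65% of all genes). Its median of 0.18 rested on single mice and ran from -0.24 without G79 to 0.86 without G4. With standard errors of 0.41 to 0.67 for 10 males and 8 females, a moderate sex difference in slope was not detectable.

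The level of each member was also set against Sox10 within the same library, a ratio that does not depend on how the libraries are scaled. Relative to Sox10, Myrf and Olig1 were higher at 500 mg/kg than with vehicle in every mouse. The log2 ratio of Myrf to Sox10 was 0.05, -0.20, -0.09, -0.22 and 0.01 in the vehicle mice and 0.33, 0.53, 0.38 and 0.38 in the 500 mg/kg mice G4, G79, G87 and G90. The means were -0.09 ± 0.12 (SD, n = 5) and 0.41 ± 0.09 (n = 4), a difference of 0.50 (exact two-sided permutation p = 0.00794, the smallest that 126 arrangements can give). The ratio of Olig1 went from 1.32 ± 0.13 (n = 5) to 1.73 ± 0.08 (n = 4), a difference of 0.41 (exact permutation p = 0.00794). Mouse G79, whose Myrf and Sox10 levels were the lowest of the 500 mg/kg mice, had the highest Myrf ratio of the group. The ratio of Olig2 was higher by 0.29 (exact permutation p = 0.0238), with 3 of 4 mice above every vehicle mouse, and the other 5 ratios differed by -0.55 (St18) to 0.33 (Nkx6-2) with exact permutation p from 0.119 to 0.413. These p-values are not adjusted for the 8 ratios. A ratio to Sox10 in which all 500 mg/kg mice exceeded every vehicle mouse was found for 0.322% of the 15862 other genes. A ratio shows unequal change and not which gene moved, and with Olig2 in the place of Sox10 the differences were smaller, 0.21 for Myrf (exact permutation p = 0.0714) and 0.12 for Olig1 (exact permutation p = 0.444).

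**Figure D3:**
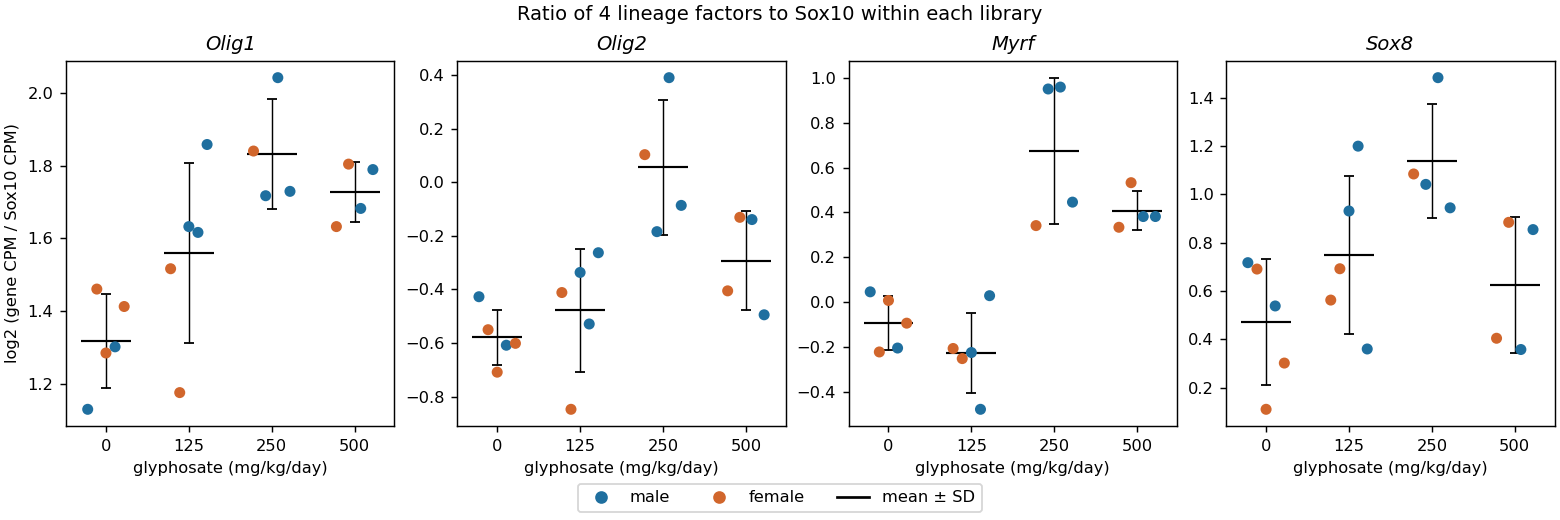
Log2 ratio of the CPM of Olig1, Olig2, Myrf and Sox8 to that of Sox10 in every mouse (vertical axes) by glyphosate dose in mg/kg/day, with males in blue, females in orange and black bars for mean ± SD. For Olig1 and Myrf all 4 mice at 500 mg/kg and all 4 at 250 mg/kg lie above every vehicle mouse, and at 125 mg/kg the Myrf ratios do not exceed those of vehicle.

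At the middle doses the ratios were less alike. At 250 mg/kg, where Sox10 was low, the ratios of Olig1, Olig2, Sox8, Myrf and Zfp488 lay above every vehicle mouse in all 4 mice, but so did those of 5.09% of all genes. The mean log2 ratio of Myrf was 0.67 ± 0.33 (n = 4) there and -0.23 ± 0.18 (n = 5) at 125 mg/kg, where 3 of 5 mice were below every vehicle mouse. For Olig1 the 125 mg/kg mean was 1.56 ± 0.25 (n = 5), with 4 of 5 mice above every vehicle mouse. For St18 all 5 ratios at 125 mg/kg were below every vehicle mouse (1.5% of all genes).

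Across the 18 mice, 8 of the members correlated positively with each other, some pairs only weakly, and St18 did not. The 28 pairs without St18 had Pearson correlations of log2 CPM from 0.116 (Nkx2-2 with Zfp488) to 0.926 (Olig1 with Olig2), with a median of 0.686, and all 28 were positive. They were all positive as well without G4 and G9 (0.0163 to 0.898, median 0.609), and all 28 were positive after the dose group means had been removed. Olig1 and Sox10 correlated at 0.858, Olig2 and Myrf at 0.853 and Nkx2-2 and Nkx6-2 at 0.754. Weak pairs included Nkx2-2 with Sox8 (0.124) and with Myrf (0.339), and Nkx6-2 with Zfp488 (0.366). The 8 pairs with St18 ran from -0.752 (Sox8) to -0.0496 (Nkx2-2). The points share libraries and a half-brain with its regional makeup, and the correlations are given as descriptions.

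**Figure D4:**
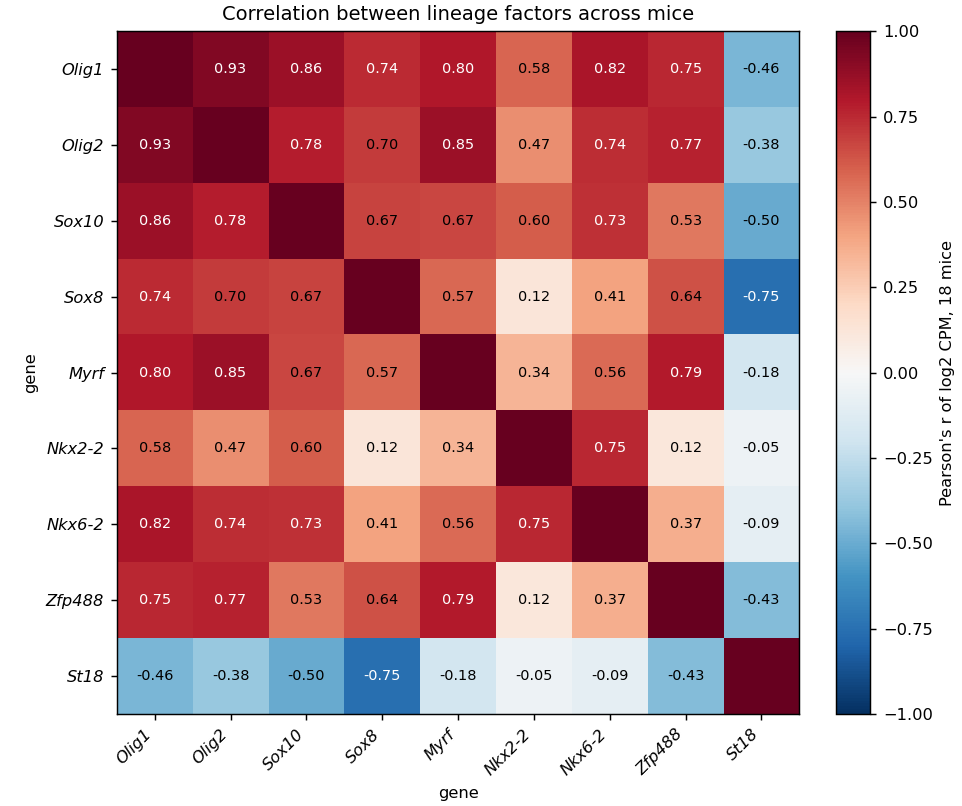
Pearson correlation of log2 CPM over the 18 mice between each pair of lineage factors (both axes list the genes; red is positive, blue negative, values printed in the cells). The 28 pairs without St18 are all positive, and the 8 pairs with St18 are all negative.

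The genes that tracked the members most closely included several of myelinating cells. Over the 18 mice, the 10 genes with the highest correlation to the mean of the 9 members, each put on a common scale, were Tmem88b (0.964), Scd2, a fatty acid desaturase (0.963), Gpr37, a receptor of oligodendrocytes (0.963), Prr18, Gna12, Galnt6, Mbp, myelin basic protein (0.940), Gltp, Bcas1 and Fa2h, which hydroxylates myelin lipids (0.935). The nearest to Myrf were Plekhh1 (0.966), Mobp, a myelin protein (0.964), and Arhgef10 (0.961), and Plekhh1 rose with dose (slope 1.04, adjusted p = 0.0452 by edgeR). Near to Nkx6-2 were the gap junction gene Gjb1 (0.926) and Paqr4 (0.906). Olig1 was the gene nearest to Olig2 of all those tested (0.926), followed by Fam214b (0.915) and Gna12 (0.901). The genes nearest to Olig1 were Scd2 (0.948), Prr18 (0.946) and Csrp1 (0.945), and those nearest to Sox10 were Pllp (0.934), Tmem88b (0.914) and Efnb3 (0.914). Those nearest to Sox8 (Nol3 at 0.896, Tmeff1, Arhgdig), Nkx2-2 (Cltb at 0.901, Ergic3, Tecr) and Zfp488 (Ptpdc1 at 0.864, Galnt16, Mafk) were not among the listed myelin genes. The same held for those nearest to Olig1 and Olig2. St18 was nearest to Stard5 (0.969), Appl2 (0.950) and Chd7, a chromatin remodeller of the lineage (0.943), none of them a listed myelin gene.

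The 22 genes of myelin and mature oligodendrocytes, many of them targets of Myrf and Sox10, had slopes much like those of the factors. By edgeR 0 of 22 passed the adjusted threshold (0.29% of all genes). At an unadjusted p under 0.05, 17 of 22 were higher (7.91% of all genes). The slopes of 22 of 22 were positive (51.2% of all genes), with a median of 0.70. Without G4 the median was 0.31 and 2 of 22 were higher at an unadjusted p under 0.05 (4.71% of all genes). Without G87 8 of 22 were (6.05% of all genes). The slopes of Mbp, the basic protein of myelin, and of Mog and Mag, glycoproteins of myelin, were 0.81 (SE 0.27), 0.70 (SE 0.30) and 0.71 (SE 0.29). DESeq2 called 3 of the list (1.28% of all genes), among them Mobp and Hapln2, named after their values were seen. The summed level of the list was 4710 to 8380 CPM with vehicle and 6700 to 18900 at 500 mg/kg, lowest in G79 and highest in G4. Its correlation with the members over the 18 mice was 0.876 for Olig1, 0.855 for Myrf, 0.831 for Nkx6-2, 0.827 for Sox10 and 0.823 for Olig2, then 0.634 for Nkx2-2, 0.587 for Zfp488, 0.565 for Sox8 and -0.166 for St18.

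**Figure D5:**
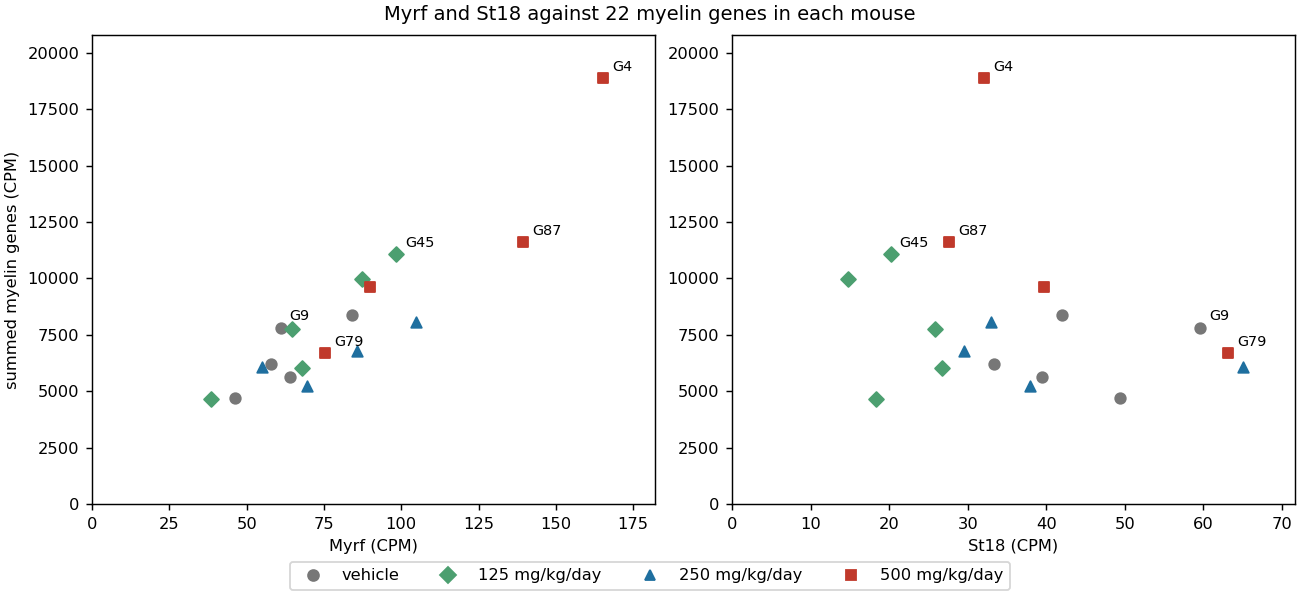
Summed CPM of 22 myelin genes (vertical axis, from 0) against the CPM of Myrf (left) and St18 (right) in each of the 18 mice, with a symbol for each dose. The myelin sum is higher in mice with more Myrf (r = 0.855 for the mean log2 levels) and has no such relation to St18 (r = -0.166), and G4 and G87 are the extreme mice for Myrf.

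The genes of oligodendrocyte progenitors had a lower median slope with all 18 mice. Of 14, 0 passed, 3 were higher at an unadjusted p under 0.05, 11 were positive and the median was 0.21. Among all genes 7.91% were higher at that p and 51.2% of slopes were positive. Pdgfra, the growth factor receptor of progenitors, had a slope of 0.30 (SE 0.16), Cspg4 (NG2) 0.40 (SE 0.14), Ptprz1 0.12 (SE 0.13) and Vcan 0.49 (SE 0.15, adjusted p = 0.181 by edgeR). Of 12 genes of committed, newly forming oligodendrocytes 0 passed, 3 were higher at an unadjusted p under 0.05, 8 were positive and the median was 0.19, with Gpr17 at 0.42 (SE 0.22), Bcas1 at 0.82 (SE 0.30), Enpp6 at 0.71 (SE 0.28) and Bmp4 at -0.06 (SE 0.35). Without G4 the median of these committed genes was 0.34, above the 0.31 of the myelin genes, and 0 had an unadjusted p under 0.05, while without G79 the medians were 0.0557 for the committed and 0.35 for the progenitor genes. Summed, the progenitor genes reached 613 to 786 CPM with vehicle and 774 to 884 at 500 mg/kg.

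The signals and regulators around the members had no common direction. Of 25 genes of upstream signalling 0 passed, 4 had an unadjusted p under 0.05 (2 higher, 2 lower) and 12 had positive slopes, with Pdgfa at 0.20 (SE 0.17), Shh at 0.10 (SE 0.31), Ptch1 at 0.30 (SE 0.24) and Smo at 0.34 (SE 0.18). Of 37 other transcriptional and chromatin regulators of the lineage, 36 were tested (Olig3 had too few counts), 0 passed, 9 had an unadjusted p under 0.05 (3 higher, 6 lower), 12 slopes were positive and the median was -0.16. Among all genes 7.91% were higher at that p, 51.2% of slopes were positive and the median was 0.01. Without G4 17 slopes were positive, the median was -0.0855 and 4 had an unadjusted p under 0.05 (1 higher, 3 lower). Among all genes 49.9% of slopes were then positive and 4.71% were higher at that p. Tcf7l2, a factor of differentiating oligodendrocytes and of the thalamus, had a slope of -0.37 with a standard error of 0.97, Zeb2 -0.08 (SE 0.18) and Nkx6-1 1.95 (SE 0.72, adjusted p = 0.250 by edgeR). DESeq2 called 2 of the list (1.28% of all genes), Sox9, which is high in astrocytes (slope -0.60, adjusted p = 0.0178 by DESeq2), and Zfp536 (slope 0.61, adjusted p = 0.00957 by DESeq2), named after their values were seen.

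Markers of other cells moved with the dose groups to different extents. Of 12 astrocyte genes 0 passed, 4 had an unadjusted p under 0.05 (3 higher, 1 lower) and the median slope was 0.36. Among all genes 7.91% were higher at that p. Aqp4 was at 0.41 (SE 0.30), Gfap at 0.83 (SE 0.26), Aldh1l1 at 0.03 (SE 0.26) and Slc1a3 at -0.49 (SE 0.22). Of 12 glutamatergic genes 0 passed (3 at an unadjusted p under 0.05, all lower), 2 were positive and the median was -1.04 (-0.63 without G4), with Slc17a7 at -1.02 (SE 0.41), Neurod6 at -0.90 (SE 0.56) and Neurod2 at -0.75 (SE 0.31). The median slope was -0.38 over 10 GABAergic genes (Gad1 -0.08, Gad2 0.49, Slc32a1 0.45, Pvalb -0.30), -0.05 over 10 microglial genes (Cx3cr1 -0.37, P2ry12 -0.37, Tmem119 0.13, Csf1r -0.10) and -0.05 over 8 endothelial genes (Cldn5 -0.50, Pecam1 0.57, Flt1 0.07, Slco1c1 -0.33), and 0 of these passed (2, 1 and 0 at an unadjusted p under 0.05). The 2 GABAergic genes at that p, Gad2 and Slc32a1, were higher, against the median of their list, and the microglial gene was lower. Of 8 tested dopaminergic genes 3 rose by edgeR, where 0.29% of all genes passed. These were Slc6a3, the dopamine transporter (slope 6.30, adjusted p = 0.000729), Ddc (2.58, adjusted p = 0.0341) and Chrna6 (2.93, adjusted p = 0.0427). The other 5 did not pass, among them Th (2.0, SE 0.57) and Slc18a2 (1.96, SE 0.48). Leaving out single mice gave 1 to 5 calls, with 1 call without G4 (Slc6a3), G87, G5 or G15 in turn. Of 12 hindbrain and spinal cord genes 0 passed (1 at an unadjusted p under 0.05, higher), with Hoxa2 at 0.64, Hoxb2 at 0.83, Hoxa3 at 0.03 and Hoxb3 at 0.90 and standard errors of 0.96 to 1.02. Of the genes of peripheral Schwann cells, which also express Sox10, 5 were tested and 0 passed (2 at an unadjusted p under 0.05, 1 higher and 1 lower). The slopes of Pmp22, Prx and Egr2 were 0.58 (SE 0.23), -0.09 (SE 0.33) and -1.83 (SE 0.71). Without G4 the medians were -0.22 (GABAergic), -0.12 (microglial), 0.0332 (endothelial) and 0.28 (hindbrain, 0.56 with all mice), and without G9 that of the hindbrain genes was 2.46. DESeq2 called 4 of the dopaminergic genes (1.28% of all genes), Th in addition to those above, and 0 in the progenitor, committed, signalling and other cell marker lists. Across the mice Nkx6-2 correlated at -0.690 with the glutamatergic list, and the part of these cell and region markers in the slopes of the lineage factors was not tested.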

How the data were processed

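RNA was isolated from half-brain samples, and the authors made stranded libraries from 250 ng of total RNA after depletion of ribosomal RNA, sequenced them as 100 bp paired ends, aligned the reads with STAR 2.7.5b to GRCm38 and counted them with featureCounts. The deposited values are raw counts per gene. The quality tool was MultiQC 1.12, and the authors tested with DESeq2 1.34.0. The paper's introduction calls the sequenced tissue hippocampal and its methods half-brain, and the latter is used here. Symbols came from RefSeq, which held 25275 of 27179 identifiers.

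Counts were analysed in R 4.3.3 with edgeR 4.0.16 (TMM, low counts removed by filterByExpr with groups by dose and min.count 10, quasi-likelihood F test, Benjamini-Hochberg over 15863 genes at 0.05; biological coefficient of variation 25.8%). The terms were sex and either dose (in units of 500 mg/kg) or dose group. CPM are TMM-normalized. RPKM divide CPM by the union of exons. Correlations use log2 CPM with a prior count of 2. Ratios were compared by exact permutation over mice, and no adjustment over the members is given, although one had been planned. Alternatives used DESeq2 1.42.0, limma 3.58.1 and sva 3.50.0. The pipeline was tested on simulated counts. The 32 pairs of libraries within groups all differed by more than counting noise (chi-square per degree of freedom 9.67 to 83.4). Replicates are separate mice. The members, the other 13 gene lists and the tests were chosen with earlier results of these data known. The text names all members, the first 4 genes of each list and any called, and the genes most correlated with the members. A few of these genes are not reported here. The lists hold genes known for each cell type or role.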

Additional observations from a re-analysis of the deposited data

Results flagged for a closer look

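Single mice far from the rest of their group were looked for in the 36 combinations of 9 members and 4 groups, and 4 were found (Dixon's test). Chance alone flags about 1 in 20 independent groups. The 36 combinations share mice and hold correlated genes, so whether 4 is more than chance gives cannot be said. At 125 mg/kg, mouse G45 had the highest Nkx2-2 (12.1 CPM, the other 4 mice between 4.18 and 6.45) and the highest Nkx6-2 (41.2 CPM, the others between 17.3 and 23.8). In the same group G40 had the lowest Zfp488 (3.95 CPM, the others between 7.37 and 8.74). At 250 mg/kg, G71 had the highest Olig2 (59.2 CPM, the others between 46.6 and 47.7). G45 and G40 were also the mice with the highest and lowest summed myelin genes at 125 mg/kg (11100 and 4640 CPM), and what sets them apart was not tested.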

How the results depend on the processing

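With 5 or 4 mice a group, and a variation of 25.8% between mice, adjusted p-values of the members stayed between 0.0306 and 1.0 over the dose slope alternatives, and the smallest counts were those of Zfp488 and Nkx2-2. DESeq2 called 1 member for the dose slope (Myrf) and 1 at 125 mg/kg (St18), where edgeR and limma-voom called 0. Leaving out each mouse in turn gave 0 to 1 calls for the slope. Dose slopes changed sign without the 500 mg/kg mice for Sox10 (-0.58), Nkx2-2 (-0.97), Nkx6-2 (-0.12) and St18 (-0.22), with 1 surrogate variable for Nkx2-2 (-0.21) and St18 (-0.0485), in males alone for St18 (-0.10) and without G4 and G9, a setting chosen after the data were seen, for Nkx2-2 (-0.17). Group contrasts changed sign for Nkx2-2 with the surrogate variable (0.00853 at 125 mg/kg, -0.16 at 500 mg/kg), for Nkx6-2 at 250 mg/kg with only the 2 groups compared (0.0199), and without G4 and G9 for Nkx2-2 at 500 mg/kg (-0.10) and St18 at 250 mg/kg (0.0253) and 500 mg/kg (0.0745). With single mice left out, the values that changed sign ran from -0.25 to 0.35 (slope of Nkx2-2), -0.12 to 0.28 (slope of St18), -0.43 to 0.00445 (Nkx2-2 at 125 mg/kg), -0.26 to 0.0296 (Nkx6-2), -0.00924 to 0.19 (Olig1) and -0.34 to 0.0641 (St18) at 250 mg/kg, and -0.20 to 0.40 (Nkx2-2) and -0.38 to 0.00453 (St18) at 500 mg/kg. With Olig2 as the reference in place of Sox10 the ratio differences were 0.12 (Olig1), 0.21 (Myrf) and -0.13 (Sox8). With single mice left out, the differences in the ratio to Sox10 were 0.36 to 0.45 for Olig1 and 0.46 to 0.54 for Myrf. For these ratios all 4 mice at 500 mg/kg exceeded every vehicle mouse. Leaving out 1 mouse therefore could not lift their exact permutation p over the threshold, and that p is no check on them. The exact permutation p for Olig2 (0.23 to 0.35), Nkx2-2 (-0.46 to -0.19), Nkx6-2 (0.20 to 0.47) and Zfp488 (0.24 to 0.49) crossed the threshold. In none of these cases was the cause tested. Replicate numbers are in accession order and pair no mice. With the title number as a replicate block, 0 members were called (0.0% of all genes), the slope of Myrf was 0.73 and that of Olig1 0.51. That block is largely tied to dose, so a lack of calls with it cannot decide whether a slope holds. The other alternatives (DESeq2 size factors, other filters on low counts, no sex covariate, dose as rank, no vehicle mice and females alone) changed no call and no sign of a slope.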
